A study of Mus musculus with 10 samples.

Results

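The genes described here are 10 genes of the TGF-beta pathway: the ligands Tgfb1, Tgfb2 and Tgfb3, the latent TGF-beta binding protein Ltbp1, the receptors Tgfbr1, Tgfbr2 and Tgfbr3, and the intracellular mediators Smad2, Smad3 and Smad7. All probes to which the platform annotation gives 1 of these symbols were taken, which came to 24 of the 45281 probes of the array. Of them, 14 were detected in enough tumors to be tested and 10 were not, and 9 of the 10 genes had at least 1 tested probe. In all, 11984 genes of the array were tested.

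The tumors were melanomas of C57BL6 mice with the genotype BrafV600E-CDK4R24C, excised from the skin and frozen in liquid nitrogen. In 5 tumors the phenotype label was pigmented and in the other 5 it was MPNST-like, for a resemblance to malignant peripheral nerve sheath tumors. Both groups shared the strain, both mutant alleles, tamoxifen painted on the skin on 4 days to switch on the BRAF(V600E) allele, and 1 skin dose of the carcinogen DMBA, so neither group holds a tumor without these alleles or without the carcinogen. Total RNA of each tumor (100 ng) was labelled with biotin and hybridized to 1 Illumina MouseWG-6 v2.0 BeadChip array. No source used here gives the Cre driver, the age and sex of the mice or whether each tumor came from its own mouse, so p-values measure the spread between these 10 tumors. Chip 1 held pigmented 1 and 2 and MPNST-like 1 and 2, and chip 2 held tumors 3 to 5 of each group.

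TGF-beta is secreted as a latent complex in which the mature ligand is held by its own propeptide, and latent TGF-beta binding proteins such as Ltbp1 anchor that complex to the extracellular matrix until integrins, proteases or force release the ligand. The free ligand binds the type II receptor Tgfbr2, which phosphorylates the type I receptor Tgfbr1, and Tgfbr1 in turn phosphorylates Smad2 and Smad3, which enter the nucleus and change transcription. Tgfbr3, also called betaglycan, is a co-receptor that presents ligand, above all TGF-beta 2, to the signalling receptors, and Smad7 is an inhibitory Smad that is itself induced by the pathway. In skin, TGF-beta is known to hold melanocyte stem cells at rest and to lower pigment gene expression, and in connective tissue it drives the production of collagen and other matrix.

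The ligands did not move together. Tgfb1 was lower in the MPNST-like tumors than in the pigmented ones, while Tgfb2 and Tgfb3 were higher. Tgfbr1, Tgfbr2 and Ltbp1 were higher as well, and Tgfbr3, Smad2 and Smad3 did not pass the test. Of the 9 genes tested, 5 were called higher and 1 lower at an adjusted p under 0.05 in limma. Over all 11984 genes, 18.6% were called higher, 20.2% lower and 38.8% in either direction. In 6 of the 9 genes tested, the same 6 that were called, all 5 MPNST-like tumors lay on one side of all 5 pigmented tumors. Over all genes tested, called or not, this was so for 25.9%.

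Each level is a log2 intensity after background correction and quantile normalization, and each difference is the MPNST-like mean minus the pigmented mean. Levels of different probes depend on the probe as well as on the RNA, so a gene is compared only with itself across tumors. A probe counts as detected in a tumor where its detection p-value was under 0.05. These are bulk specimens, in which fewer cells of a type and less RNA per cell cannot be told apart.

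**Figure D1:**
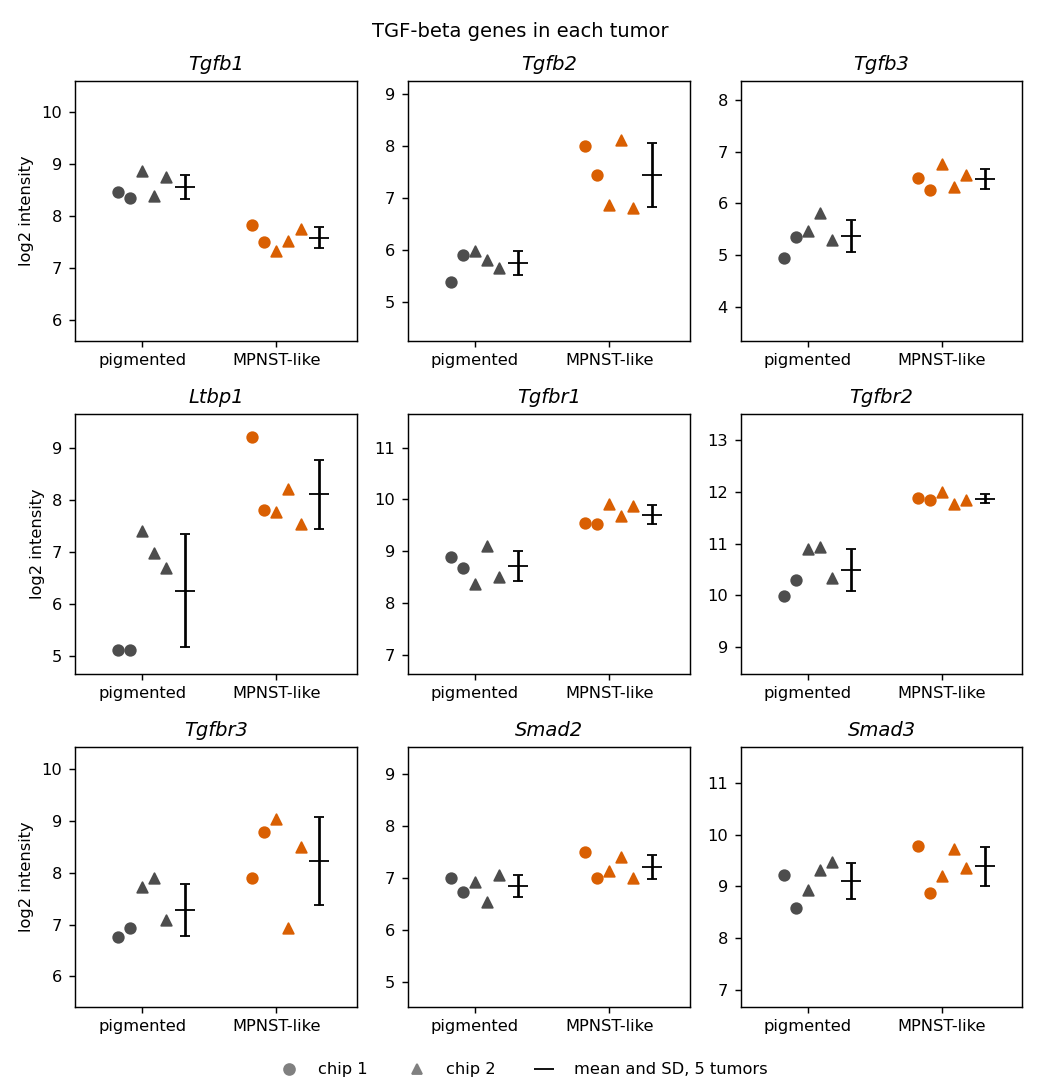
Log2 intensity of the brightest probe of each tested TGF-beta gene (vertical axis, 5 log2 units in every panel) in the 5 pigmented and 5 MPNST-like tumors; each point is a tumor, its shape gives the chip, and the bar gives the mean and SD. The groups are apart in Tgfb1, Tgfb2, Tgfb3, Ltbp1, Tgfbr1 and Tgfbr2, with Tgfb1 the one that is lower in the MPNST-like tumors, and they overlap in Tgfbr3, Smad2 and Smad3.

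Tgfb1, the ligand most widely made by immune cells, platelets and stroma, had log2 intensities of 8.47, 8.35, 8.87, 8.38 and 8.74 in pigmented tumors 1 to 5. The MPNST-like tumors, in the same order, had 7.82, 7.49, 7.33, 7.52 and 7.75. Every MPNST-like tumor was below every pigmented tumor, and the spread within the groups was small (SD 0.23 and 0.20, n = 5 each). The difference was -0.98 (SE 0.16, 95% interval -1.33 to -0.64, adjusted p = 0.000778), a level 1.98-fold lower in the MPNST-like tumors.

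Tgfb2, the isoform best known from neural crest and mesenchymal development, had 5.39, 5.91, 5.99, 5.81 and 5.64 in pigmented tumors 1 to 5. Its values in MPNST-like tumors 1 to 5 were 8.01, 7.45, 6.88, 8.12 and 6.80. The groups did not overlap, and the MPNST-like tumors spread from 6.80 to 8.12, all above every pigmented tumor. The difference was 1.70 (SE 0.27, 95% interval 1.10 to 2.31, adjusted p = 0.000774), or 3.26-fold.

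Tgfb3, an isoform prominent in developing palate and in scarless wound repair, had 4.95, 5.36, 5.48, 5.81 and 5.29 in pigmented tumors 1 to 5. In MPNST-like tumors 1 to 5 it had 6.48, 6.27, 6.76, 6.32 and 6.54. The groups were again apart, with MPNST-like 3 highest for Tgfb3 although it was among the lower MPNST-like tumors for Tgfb2. The difference was 1.10 (SE 0.18, 95% interval 0.71 to 1.48, adjusted p = 0.000767), or 2.14-fold.

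Because the 3 ligands were read on the same arrays, their differences can be set against each other within a tumor. The difference of Tgfb2 exceeded that of Tgfb1 by 2.69 on the log2 scale, and that of Tgfb3 exceeded that of Tgfb1 by 2.08. The log2 ratio of Tgfb2 to Tgfb1 was higher in every MPNST-like tumor than in any pigmented tumor, as was that of Tgfb3 to Tgfb1. The ratio of Tgfb2 to Tgfb3 shifted by 0.61 with groups that overlapped. These ratios show unequal change of the isoforms and not which isoform moved. In the pigmented tumors Tgfb2 and Tgfb3 were dim, with raw intensities of at most 114 and 113. The undetected Smad7 probe read up to 91.7. Without background correction the differences were smaller, 1.02 for Tgfb2 and 0.52 for Tgfb3, and passed (adjusted p = 0.00227 and 0.000915). Among the alternatives, the excess over Tgfb1 was as low as 1.81 for Tgfb2 and 1.31 for Tgfb3. On chip 1 alone, with 2 tumors against 2, all 3 ligands had the same direction and none passed (adjusted p = 0.25 for Tgfb1, 0.0618 for Tgfb2 and 0.128 for Tgfb3), while on chip 2 alone all 3 passed. Scaling the arrays to a common median moved the median of all genes from 0.011 to 0.33, and the difference of Tgfb1 was then -0.47 (adjusted p = 0.0432). In the authors' normalized values, where the median of all genes was -0.22, it was -1.43.

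The promoter windows of Tgfb1 and Tgfb2 are shown because these ligands were called in opposite directions. Each is the RefSeq sequence of GRCm38.p6 from 250 bases before to 50 after the annotated start, 5′ to 3′ on the gene's own strand. The table held such windows for 6 of the 10 genes. Letters in capitals mark a match, on either strand, to 1 of 5 motifs: the core Smad box CAGAC, the AP-1 site TGANTCA, the cAMP response element TGACGTCA, the TATA box TATAAA and the E-box CACGTG. The motifs were chosen with these sequences in view.
Tgfb1, chr7:25686752-25687051, plus strand: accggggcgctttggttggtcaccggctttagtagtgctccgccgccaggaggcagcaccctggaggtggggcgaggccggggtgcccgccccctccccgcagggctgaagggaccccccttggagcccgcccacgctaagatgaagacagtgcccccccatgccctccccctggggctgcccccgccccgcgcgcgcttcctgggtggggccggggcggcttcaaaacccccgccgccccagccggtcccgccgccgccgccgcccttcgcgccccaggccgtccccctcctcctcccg
Tgfb2, chr1:186705940-186706239, minus strand: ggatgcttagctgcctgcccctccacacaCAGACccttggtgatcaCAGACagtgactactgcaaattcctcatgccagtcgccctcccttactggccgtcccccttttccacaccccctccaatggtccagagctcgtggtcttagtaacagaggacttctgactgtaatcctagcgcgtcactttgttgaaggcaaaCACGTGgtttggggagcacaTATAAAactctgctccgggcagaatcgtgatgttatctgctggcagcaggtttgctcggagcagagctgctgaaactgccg
The Tgfb1 window held none of the 5 motifs and was 77.0% G or C, against a median of 52.7% over all 32851 windows of the same length. The Tgfb2 window was 54.3% G or C. It held 2 Smad boxes, starting at -221 and -204 from the start site, an E-box at -51 and a TATA box at -31. A Smad box occurred in 49.6% of all windows, a TATA box in 13.6% and the E-box CACGTG in 7.15%. A match is a run of letters and no evidence of binding.

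Ltbp1, which tethers latent TGF-beta to fibrillin-containing matrix, had 5.11, 5.11, 7.40, 6.98 and 6.70 in pigmented tumors 1 to 5 with its brightest probe. The MPNST-like tumors, in the same order, had 9.21, 7.81, 7.78, 8.22 and 7.54. The groups did not overlap, but the pigmented tumors were wide apart (SD 1.08): pigmented 1 and 2, both on chip 1, were lowest, and pigmented 3 at 7.40 was close to MPNST-like 5 at 7.54. The difference was 1.85 (SE 0.49, 95% interval 0.76 to 2.94, adjusted p = 0.0126), or 3.61-fold. On chip 1 alone it was 3.41 (adjusted p = 0.0481) and on chip 2 alone it was 0.82 and did not pass (adjusted p = 0.0582).

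Ltbp1 had 7 probes, and they did not read alike. The second kept probe was dim and was detected in 3 pigmented and 1 MPNST-like tumor, with a difference of -0.37 (SE 0.19, 95% interval -0.77 to 0.04, adjusted p = 0.15). The other 5 probes were detected in no tumor. With the mean of both kept probes in place of the brighter, the difference of Ltbp1 was 0.74 and did not pass (adjusted p = 0.0613), so the call for this gene rests on 1 probe. RefSeq gives Ltbp1 a long form and a short form that begin at different start sites, and both windows held a Smad box. They are shown because the probes of this gene differ, although which form each probe reads was not determined. The platform annotation ties the kept probes to different RefSeq transcripts, and an undetected probe shares the transcript of the brighter one.
Ltbp1, upstream start, chr17:75005279-75005578, plus strand: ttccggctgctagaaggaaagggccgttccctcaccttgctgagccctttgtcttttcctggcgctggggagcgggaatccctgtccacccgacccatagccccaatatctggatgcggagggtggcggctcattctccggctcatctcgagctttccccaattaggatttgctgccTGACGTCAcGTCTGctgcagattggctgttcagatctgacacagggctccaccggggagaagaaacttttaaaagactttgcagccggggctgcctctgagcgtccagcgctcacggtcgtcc
Ltbp1, downstream start, chr17:75178531-75178830, plus strand: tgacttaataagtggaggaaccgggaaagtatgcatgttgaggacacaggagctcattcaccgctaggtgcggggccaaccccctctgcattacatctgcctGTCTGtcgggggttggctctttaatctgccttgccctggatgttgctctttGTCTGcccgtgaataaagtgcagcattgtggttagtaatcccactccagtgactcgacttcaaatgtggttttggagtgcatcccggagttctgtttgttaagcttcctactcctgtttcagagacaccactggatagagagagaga
The upstream window held a cAMP response element at -73, a motif found in 1.79% of all windows, and a Smad box at -64. The downstream window held 2 Smad boxes, at -148 and -97.

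Tgfbr2, the type II receptor that binds ligand first, had 9.99, 10.29, 10.89, 10.94 and 10.35 in pigmented tumors 1 to 5. Its values in MPNST-like tumors 1 to 5 were 11.87, 11.85, 12.00, 11.76 and 11.83. The MPNST-like tumors were nearly equal to each other (SD 0.09), while the pigmented ones spread over almost 1 log2 unit (SD 0.41), and the groups did not overlap. The difference was 1.37 (SE 0.19, 95% interval 0.95 to 1.79, adjusted p = 0.000354), or 2.59-fold. In the authors' normalized values it was 0.63 and did not pass (adjusted p = 0.0854). On chip 1 alone it was 1.72 and did not pass either (adjusted p = 0.0562).

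The promoter window of Tgfbr2 is shown as that of the gene with the lowest adjusted p among the 9 tested.
Tgfbr2, chr9:116175314-116175613, minus strand: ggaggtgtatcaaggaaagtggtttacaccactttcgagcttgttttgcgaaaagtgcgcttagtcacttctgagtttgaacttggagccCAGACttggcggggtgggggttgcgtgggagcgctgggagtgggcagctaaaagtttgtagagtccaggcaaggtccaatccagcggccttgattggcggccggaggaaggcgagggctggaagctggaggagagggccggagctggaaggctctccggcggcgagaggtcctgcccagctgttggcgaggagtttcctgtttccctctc
This window was 59.0% G or C and held 1 Smad box, at -160. Of the 8 windows examined for the 6 genes, 5 held a Smad box.

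Tgfbr1, the type I receptor kinase, had 8.90, 8.68, 8.37, 9.09 and 8.50 in pigmented tumors 1 to 5 with its brightest probe. In MPNST-like tumors 1 to 5 it had 9.54, 9.52, 9.91, 9.67 and 9.87. All MPNST-like tumors were above all pigmented tumors. The difference was 0.99 (SE 0.17, 95% interval 0.62 to 1.36, adjusted p = 0.00106), or 1.99-fold. It was 0.43 in the authors' values (adjusted p = 0.116) and 0.74 on chip 1 alone (adjusted p = 0.238), and passed in neither.

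Tgfbr3, the co-receptor betaglycan, had 6.77, 6.93, 7.73, 7.90 and 7.09 in pigmented tumors 1 to 5 with its brightest probe. The MPNST-like tumors, in the same order, had 7.89, 8.78, 9.04, 6.93 and 8.49. MPNST-like 4 was down among the lowest pigmented tumors, MPNST-like 1 was level with pigmented 4, and the other 3 were above all pigmented tumors. The difference of 0.94 (SE 0.39, 95% interval 0.09 to 1.79) did not pass (adjusted p = 0.0754). Without MPNST-like 4 it was 1.27 and passed (adjusted p = 0.0104). After median scaling it was 1.48 and passed as well (adjusted p = 0.0106).

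**Figure D2:**
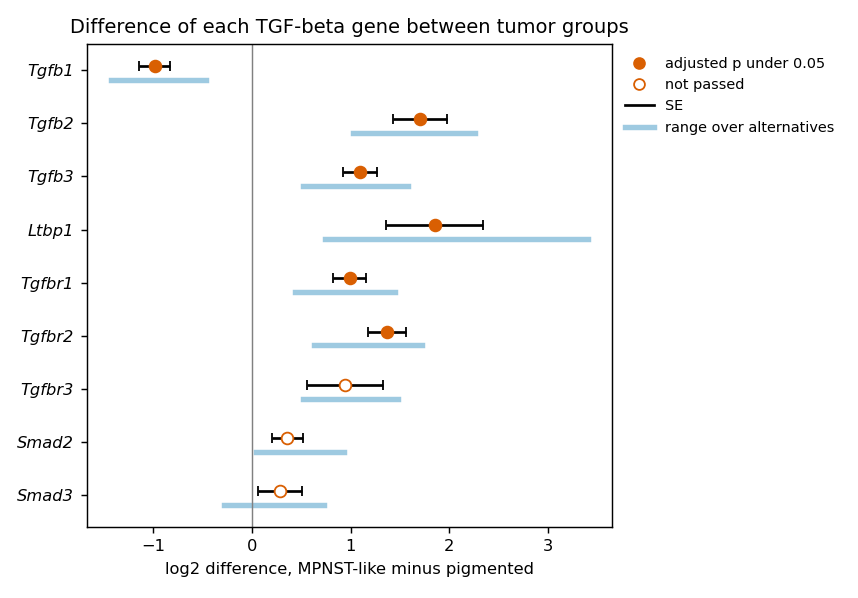
Log2 difference between the groups (horizontal axis, MPNST-like minus pigmented) for each tested TGF-beta gene; points are the estimates, filled where the adjusted p was under 0.05, black bars are SEs and blue bars span the 24 alternative ways of processing. Tgfb1 stays below 0 from -1.43 to -0.47, the 5 genes called higher stay above 0, and Smad3 crosses 0.

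Smad2 and Smad3, the receptor-regulated Smads of this branch, overlapped between the groups. Smad2 had 7.00, 6.72, 6.91, 6.54 and 7.06 in pigmented tumors 1 to 5. Its values in MPNST-like tumors 1 to 5 were 7.50, 7.00, 7.13, 7.40 and 7.01. MPNST-like 1, 3 and 4 were above all pigmented tumors, and MPNST-like 2 and 5 were not. The difference of 0.36 (SE 0.16, 95% interval 0.01 to 0.71, adjusted p = 0.0958) did not pass. It passed after median scaling (0.93, adjusted p = 0.00263), after cyclic loess (0.49, adjusted p = 0.0184) and with the keratinocyte marker level as a covariate (0.59, adjusted p = 0.0257).

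Smad3 had 9.22, 8.59, 8.92, 9.31 and 9.46 in pigmented tumors 1 to 5 with its brightest probe. In MPNST-like tumors 1 to 5 it had 9.78, 8.87, 9.21, 9.73 and 9.37. The groups were interleaved, and only MPNST-like 1 and 4 exceeded every pigmented tumor. The difference was 0.29 (SE 0.22, 95% interval -0.20 to 0.78, adjusted p = 0.326). In the authors' values it was -0.28, and after median scaling it was 0.74 (adjusted p = 0.0451), so Smad3 has no settled direction. The dimmer probe of Smad3 had a difference of -0.29 (SE 0.28, 95% interval -0.91 to 0.34, adjusted p = 0.47).

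Smad7, the inhibitory Smad, had 1 probe, which was detected in none of the 10 tumors and was not tested. Its normalized log2 intensity lay between 4.14 and 4.38. The array therefore gave no reading of Smad7 in either group.

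The rule takes every probe of a symbol, and 5 of the genes had 2 tested probes each. Of the 14 tested probes, 7 were called higher, 1 lower and 6 neither. Over all 22480 tested probes, 15.4% were called higher and 18.7% lower. The dimmer Tgfbr1 probe moved with the brighter one, with a difference of 0.60 (SE 0.17, adjusted p = 0.0189) and groups that did not overlap. The dimmer Tgfbr2 probe did not, with log2 intensities of 4.91 to 5.58 in the pigmented tumors and 5.09 to 5.38 in the MPNST-like tumors. Its difference was 0.09 (95% interval -0.25 to 0.42, adjusted p = 0.701).

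The dimmer Tgfbr3 probe was detected in no pigmented tumor and in 3 MPNST-like tumors, namely those with the highest values (5.01, 5.20 and 4.78 in MPNST-like 2, 3 and 5). Those are also the tumors in which the brighter Tgfbr3 probe was highest. It was at least 1.12-fold higher in the MPNST-like tumors, with an adjusted p just under 0.05 that 18 of 22 alternatives raised above it. In all, 8 of the 24 probes were detected in no tumor: 5 of Ltbp1 and 1 each of Tgfbr1, Tgfbr2 and Smad7. The probe sequences and the transcript each probe reads were not analysed here.

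**Figure D3:**
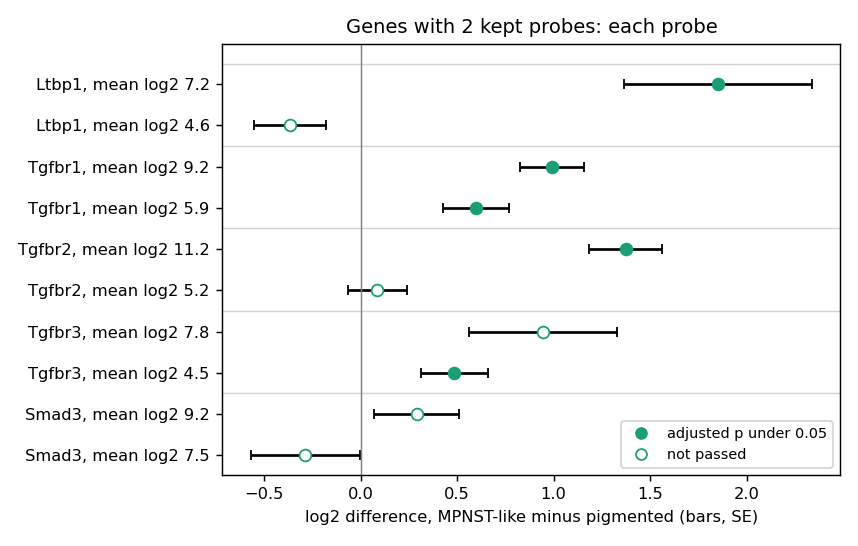
Log2 difference (horizontal axis, MPNST-like minus pigmented; bars are SEs) of each of the 2 kept probes of 5 genes, labelled with the gene and the probe's mean log2 intensity over the 2 groups; filled points had an adjusted p under 0.05 over all kept probes. Both Tgfbr1 probes were called higher, Tgfbr2 and Ltbp1 were called through the brighter probe only, and the 2 Smad3 probes lie on opposite sides of 0.

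The other genes of the pathway were taken from 5 lists by role, chosen with earlier results of these data known. Each count below stands beside the 18.6% of all genes called higher and the 20.2% called lower. In the list of latency and activation genes, 14 of 19 were tested, and 6 were higher and 0 lower, with a median difference of 0.46 against 0.011 over all genes. Ltbp4, another matrix-bound latent TGF-beta binding protein, was 9.59-fold higher (3.26, SE 0.48, adjusted p = 0.00046). Bmp1, a metalloproteinase that cleaves procollagens and Ltbp1, was 6.43-fold higher (2.68, SE 0.29, adjusted p = 9.37e-05). In both genes the groups did not overlap, as for Ltbp1 itself. Itgb5, an integrin subunit that can free latent TGF-beta, differed by 1.36 (adjusted p = 0.021) and the gelatinase gene Mmp9 by 1.57 (adjusted p = 0.0384), both with groups that overlapped. The Mmp9 call was lost in 11 of the 24 alternatives and that of Itgb5 in 5.

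Among genes whose products bind or regulate the receptors, 16 of 18 were tested, and 2 were higher and 7 lower, with a median difference of -0.10. The shares over all genes were 18.6% higher and 20.2% lower. Vasn, whose product vasorin traps TGF-beta, was higher by 2.34 (SE 0.30, adjusted p = 0.000228). Dab2, an adaptor that links the receptors to Smad2 and Smad3, was higher by 1.55 (SE 0.42, adjusted p = 0.0137), a call lost in the authors' values, on either chip alone and with the keratinocyte covariate, with a lowest value of 0.95. Nedd4l, a ubiquitin ligase that marks activated Smad2 and Smad3 for destruction, fell by 1.97 on the log2 scale (SE 0.39, adjusted p = 0.00254), and did not pass on either chip alone. Acvrl1, a type I receptor of endothelium also called ALK1, fell by 1.12 (SE 0.29, adjusted p = 0.0101), a call lost after median scaling, on chip 1 alone, with the keratinocyte covariate and without the 3 tumors that held muscle RNA. Vasn did not pass on chip 1 alone, and the balance of the list moved with the scaling: after median scaling 4 were higher and 2 lower, with a median of 0.27, and in the authors' values the median was -0.67.

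Among the other Smads and nuclear partners, 13 of 19 were tested, and 6 were higher and 1 lower, with a median difference of 0.46. Zeb1 and Zeb2, repressors that bind Smads and act in the epithelial-mesenchymal transition, were higher by 1.74 (SE 0.25, adjusted p = 0.000375) and 1.27 (SE 0.25, adjusted p = 0.00247). Runx1, a Smad-binding transcription factor, was higher by 1.63 (adjusted p = 0.00226), with detection in 3 of 5 pigmented tumors. The 2 Smads of the BMP branch in this list that were tested moved apart: Smad1 was higher by 0.98 (SE 0.17, adjusted p = 0.00116), while Smad5, named after its values were seen, fell by 0.84 (SE 0.22, adjusted p = 0.0119). The Smad5 call was lost after median scaling, on either chip alone, with the keratinocyte covariate and without the 3 tumors that held muscle RNA. On chip 1 alone Zeb1, Zeb2 and Smad1 did not pass, in the authors' values Zeb2 and Smad1 did not, and on chip 2 alone Runx1 did not.

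Genes known to respond to TGF-beta formed the list with the highest median. Of 33, 31 were tested, and 21 were higher and 0 lower, with a median difference of 1.74. Over all genes, 18.6% were called higher and 20.2% lower. The largest differences that passed were those of Col3a1 (4.35, SE 0.80, adjusted p = 0.00168), Postn (3.91, SE 0.17, adjusted p = 6.16e-07), Col1a2 (3.78, SE 0.60, adjusted p = 0.00074) and Col1a1 (3.45, SE 0.69, adjusted p = 0.00272). These encode 3 fibrillar collagen chains and periostin, all abundant products of fibroblasts. Postn was detected in 2 of 5 pigmented tumors, so its fold is limited by background. A further 10 tested genes of the list did not pass, and are named after their values were seen. They were Acta2 (0.78), Vim (0.68), Tagln (0.59), Junb (0.52), Il11 (0.34), Bhlhe40 (0.21), Tsc22d1 (0.16), Hmga2 (0.12), Klf10 (-0.20) and Cdkn1a (-0.54). Of genes that passed and were chosen after their values were seen, Pmepa1, a Smad-induced feedback inhibitor, was higher by 1.31 (SE 0.24, adjusted p = 0.00156). Skil, another Smad-induced repressor and a gene of the nuclear partner list, was higher by 0.84 (SE 0.16, adjusted p = 0.00179). Pmepa1 did not pass on chip 1 alone, Skil neither there nor in the authors' values, and Col1a1 not on chip 2 alone.

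In the activin and BMP branch, which uses related receptors and Smads, 22 of 32 genes were tested, and 10 were higher and 0 lower, with a median difference of 0.77. Fstl1, a secreted follistatin-like glycoprotein of mesenchyme, was 12.2-fold higher (3.61, SE 0.45, adjusted p = 0.000202). Inhba, which encodes the subunit of activin A, a ligand that signals through Smad2 and Smad3, was higher by 1.87 (SE 0.48, adjusted p = 0.0109). Bmp7 was higher by 1.89 (SE 0.30, adjusted p = 0.000754) but was detected in 1 of 5 pigmented tumors. Id1, a standard target of BMP signalling, was higher by 1.36 (SE 0.36, adjusted p = 0.0118), a call lost in the authors' values, on either chip alone and with the keratinocyte covariate, with a lowest value of 0.82. Id2 and Id3 are named after their values were seen. Id3 was higher by 1.35 (adjusted p = 0.0427). Id2 had a difference of -0.97 with groups that did not overlap, and did not pass (adjusted p = 0.0519). On chip 1 alone Bmp7 and Inhba did not pass, nor did Inhba on chip 2 alone.

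**Figure D4:**
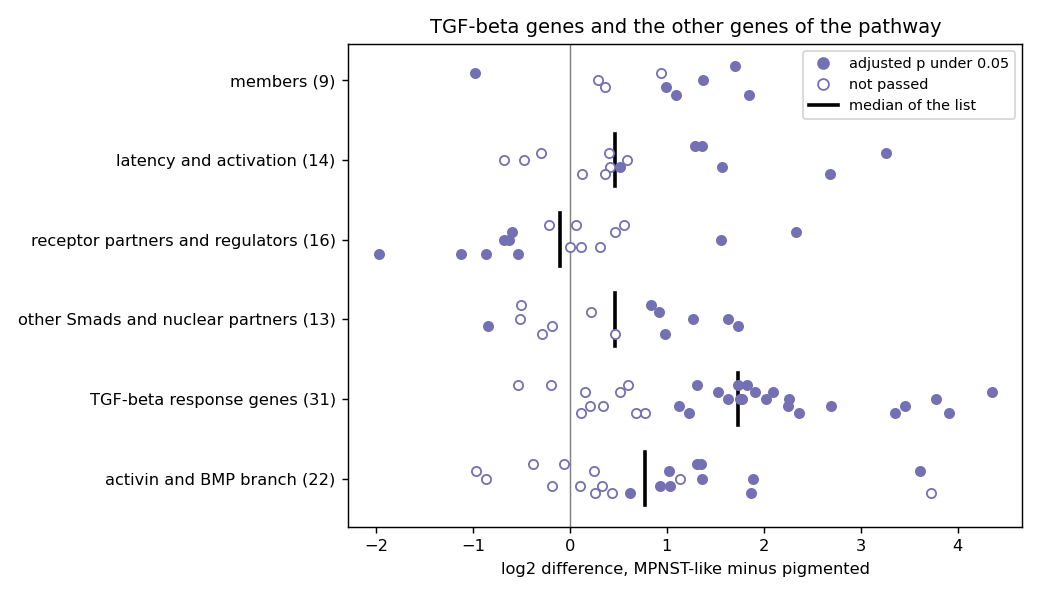
Log2 difference (horizontal axis, MPNST-like minus pigmented) of the 9 tested TGF-beta genes and of every tested gene of 5 related lists, with the number of genes tested in brackets; filled points had an adjusted p under 0.05 and black bars are list medians. The response genes have the highest median, 1.74, and the receptor partners have the only one below 0, -0.10.

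The specimens also differed in markers of other cell types, several of which make or answer TGF-beta. Beside the marker counts, 18.6% of all genes were called higher and 20.2% lower. Fibroblast markers were higher in 4 of 7, with a summed normalized intensity of 1520 to 12608 in the pigmented group and 21762 to 32077 in the MPNST-like group. Macrophage markers were higher in 6 of 6 tested, with sums of 316 to 1805 and 1716 to 6083. Endothelial markers were higher in 2 of 6 tested, with sums of 304 to 729 and 914 to 1687. Of 5 pericyte markers 4 were higher and 1 was lower, with sums of 341 to 1411 and 849 to 2708, and 4 of 5 mast cell markers were higher, with sums of 151 to 854 and 444 to 3622. Of 5 Schwann cell markers tested, Gap43 (5.14), Ngfr (4.15) and Egr2 (2.92) were higher, Sox10 (-0.87) was lower and S100b did not pass. Their sums were 4552 to 7518 in the pigmented group and 3722 to 8977 in the MPNST-like group. Sox10 had the highest mean log2 intensity of the 5 in both groups (12.5 and 11.6) and so weighs most in these sums. The similar sums therefore do not stand for Schwann cells as a whole. The part of all these cell types in the differences of Tgfb2, Tgfb3, Ltbp1, the receptors and the collagen genes was not tested. Pigmented 4 had the highest fibroblast, macrophage, endothelial, pericyte, mast cell, adipocyte, keratinocyte and muscle sums of its group, but not the highest T cell, platelet or Schwann cell sum. It also had the highest Tgfb3, Tgfbr1, Tgfbr2 and Tgfbr3 of that group, but not the highest Tgfb1, Tgfb2, Ltbp1, Smad2 or Smad3. This tumor was singled out after its values were seen, and a link between the marker sums and these genes was not tested.

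Among cells known to make Tgfb1, macrophages had markers that were higher in the MPNST-like tumors, in which Tgfb1 was lower. Of 5 platelet markers, Pf4, which macrophages can also express, was higher (2.55, SE 0.83, adjusted p = 0.0312, a call lost in 11 of 24 alternatives) and 4 did not pass. Of 6 T cell markers tested, Foxp3, the transcription factor of regulatory T cells, was lower (-0.94, SE 0.21, adjusted p = 0.00527). This call was lost in 4 of 24 alternatives: median scaling, the mean of its kept probes, chip 1 alone and the keratinocyte covariate. In the pigmented tumors Foxp3 was detected in 5 of 5, Cd3g in 3, and Cd3d, Cd3e, Cd2 and Cd4 in 2. Whether the Foxp3 probe reads regulatory T cells here was not tested. The 5 markers other than Foxp3 did not pass, with differences of 0.96 for Cd3g, 0.70 for Cd3d, 0.62 for Cd3e, 0.15 for Cd2 and -0.20 for Cd4. The T cell sums were 446 to 851 in the pigmented group and 431 to 666 in the MPNST-like group, sums in which the bright Foxp3 probe weighs more than any other, so they do not stand for T cells as a whole. The part of these cells in the lower Tgfb1 was not tested either. Melanocyte markers were lower in 7 of 7, with sums of 65308 to 70949 in the pigmented group and 142 to 25846 in the MPNST-like group. The part of lost pigment cell RNA in the lower Tgfb1 was not tested. In MPNST-like tumors 1 to 5 the melanocyte sums were 142, 322, 4071, 1198 and 25846. Their Tgfb1 values, in the same order, were 7.82, 7.49, 7.33, 7.52 and 7.75.

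Of the melanomas, all 5 pigmented ones held high melanocyte markers. In MPNST-like 1 and 2 those markers summed to 142 and 322, but in MPNST-like 5 to 25846. Tyr was detected in 1 of 5 MPNST-like tumors, Slc45a2 in 2 and Oca2 in 3. Pmel, Tyrp1 and Mlana were detected in 4 of these tumors and Dct in 5, and Dct overlapped between the groups. Skeletal muscle markers were high in pigmented 4 and MPNST-like 2 and 5, with sums of 26410, 32190 and 40720 against at most 3187 in the others. Without those 3 tumors, the 6 calls on the TGF-beta genes held. Keratinocyte markers summed to 2043 to 16384 in the pigmented group and 3746 to 27061 in the MPNST-like group, and with their mean level as a covariate these 6 genes passed, and so did Smad2. The raw arrays of the pigmented tumors had medians of 79.4 to 89.0 and 17908 to 20120 detected probes, and those of the MPNST-like tumors had medians of 87.4 to 93.9 and 19274 to 21581 detected probes. Pairs of arrays correlated at 0.924 to 0.968 among the pigmented tumors, at 0.906 to 0.965 among the MPNST-like tumors and at 0.802 to 0.928 across the groups.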

How the data were processed

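Per the file headers, the deposited scanner table holds the mean bead intensity of 45281 probes on 10 arrays, each with a detection p-value, and none of the intensities was negative. The authors' second deposited table holds normalized log2 values. Within an array, 2 raised to such a value followed the intensity on a straight line (R squared 1 throughout, with slopes of 1.11 to 2.62 for the pigmented and 0.578 to 1.10 for the MPNST-like tumors), which settles scale and direction. The medians of its columns were 4.79, 4.92, 5.00, 4.86 and 4.96 (pigmented 1 to 5) and 4.79, 4.85, 4.80, 4.80 and 4.82 (MPNST-like 1 to 5). No source used here says how the authors normalized or centred them, and they served as an alternative.

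With limma 3.58.1 (R 4.3.3), background was corrected by normexp using the detection p-values (offset 16), then arrays were quantile normalized and taken to log2. Probes with a detection p-value under 0.05 on 3 or more arrays were kept (22480). Among all probes, 34885 carried 1 symbol, 18 several and 10378 none. Entrez identifiers matched 34807 probes to RefSeq genes of GRCm38.p6, and 0 symbols changed. The brightest kept probe stood for its gene, which gave 11984 genes. Groups were compared by lmFit and eBayes with Benjamini-Hochberg adjustment over all genes, or over all kept probes for single probes, and called at an adjusted p under 0.05. The fit was tested on simulated data. No 2 arrays were identical.

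A gene detected in no tumor of a group has only a bound there, given as at least a fold: the brighter group's mean against, per array, the higher of the lowest detected signal and the probe's own. Up to 4 genes that passed with the largest absolute differences were named per pathway list, beside those said to be named later. The genes and lists were chosen with earlier results of these data known. The number of arrays limits the precision. Figures used matplotlib 3.10.9 under Python 3.11.15. Alternatives covered background correction, scaling, the authors' values, filters, probes per gene, chip, the variance model, tumors with muscle RNA, skin markers and each tumor left out.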

Additional observations from a re-analysis of the deposited data

How the results depend on the processing

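No paired analysis was possible because the replicate numbers only name the tumors and nothing in the labels pairs them. Of 24 alternatives, 10 left out 1 tumor each. The calls of Tgfb1, Tgfb2 and Tgfb3 held in 23 of 24, and those of Tgfbr1, Tgfbr2 and Ltbp1 in 22. Smad3 turned to -0.28 in the authors' values. The dimmer Smad3 probe turned to 0.28 after median scaling and 0.057 without the tumors with muscle RNA, and the dimmer Tgfbr2 probe to -0.027 in the authors' values and -0.036 on chip 2 alone. Scaling and chip moved the counts most. A fit on 1 chip alone also had fewer tumors, and the causes of these shifts were not tested.

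Median scaling gave 3847 genes higher and 902 lower, the authors' values 1220 and 3817, chip 1 alone 255 and 135, and the keratinocyte covariate 1342 and 1340. TGF-beta genes called higher numbered 8 after median scaling, 3 in the authors' values and 1 on chip 1 alone, where 0 were lower. Their probes called higher numbered 4 in the authors' values, 1 on chip 1 alone (0 lower) and 4 on chip 2 alone. Leaving out 1 tumor gave 5 to 6 such genes higher and 6 to 8 probes.

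Latency genes called higher fell to 2 on chip 1 alone. Those called lower numbered 2 in the authors' values and 1 without background correction, with normexp by maximum likelihood, with trend and robust eBayes, without the muscle tumors and with the covariate (0 to 1 leaving out 1 tumor). Receptor partners called higher and lower numbered 4 and 2 after median scaling, 0 and 0 on chip 1 alone, 1 and 3 on chip 2 alone, and 1 and 1 with the covariate. Higher calls numbered 1 in the authors' values, and lower calls 3 without the muscle tumors. Leaving out 1 tumor gave 2 to 3 higher and 5 to 7 lower.

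Other Smads called higher numbered 2 in the authors' values and 1 on chip 1 alone. Lower calls numbered 4 in the authors' values, and 0 after median scaling, on either chip alone, without the muscle tumors and with the covariate. Leaving out 1 tumor gave 1 to 3 lower, 3 without pigmented 2 and 2 without MPNST-like 3. Response genes called higher numbered 6 on chip 1 alone, and 1 was lower in the authors' values. Activin and BMP genes called higher numbered 5 in the authors' values and 2 on chip 1 alone. Lower calls numbered 2 in the authors' values and with the stricter filter, and 1 with cyclic loess, no filter, the mean of probes, chip as a block, trend and robust eBayes, without the muscle tumors and with the covariate (0 to 1 leaving out 1 tumor).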
